A study of Homo sapiens with 6 samples.

Results

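The broad γH2AX domains of UNG knockout (KO) cells treated with pemetrexed are the peaks of that library's deposited list that span 2000 bp or more on chromosomes 1 to 22. They numbered 1194 of the 5270 peaks of the list on these chromosomes (22.7%), out of 12579 peaks in the 4 lists analysed. They were chosen by their width alone, so their widths are given as a description and support nothing. The remaining 4076 peaks of the same list are called the narrower peaks below. They came from the same library and were called in the same way, so depth and control were shared by both classes.

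All libraries were made by chromatin immunoprecipitation and sequencing (ChIP-seq) from DLD1, an established human colorectal cancer cell line, with an antibody against H2A.X phosphorylated at serine 139. The cells were wild type (WT, UNG+/+) or UNG knockout (UNG-/-), and cells of either genotype received pemetrexed, cisplatin or no drug. Each of these 6 groups had 1 library, and the peak lists analysed here were those of the 4 drug-treated libraries. The sources used here do not give the doses, the treatment times, how UNG was removed or whether the KO cells were a single clone. The lists hold positions only, in genome build hg18, with no height, score or read count, and the depth of each library is unknown. With 1 library per group there is no replicate check. Every interval below is a 95% interval that covers counting error only and is given without a p-value. The intervals assume independent peaks, an assumption that neighbouring peaks break.

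γH2AX is the histone variant H2AX phosphorylated by the DNA damage kinases ATM, ATR and DNA-PK. It forms on the chromatin beside a DNA double strand break and spreads along it, so that it is known as a mark of extended regions rather than of single sites. UNG is the uracil DNA glycosylase that starts base excision repair by removing uracil from DNA. Pemetrexed is an antifolate that inhibits thymidylate synthase and favours the incorporation of uracil in place of thymine. Cisplatin damages DNA by crosslinking it.

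The domains were long but mostly of a few kilobases. The lower quartile of their width was 2375 bp, the median 2962 bp and the upper quartile 4142.5 bp. Of the 1194 domains, 577 (48.3%) spanned 3 kb or more, 201 (16.8%) spanned 5 kb or more and 27 (2.26%) spanned 10 kb or more. Together they covered 4.40 Mb, which was 49.2% of the bases under the list's peaks on these chromosomes. The 201 domains of 5 kb or more held 34.0% of the domain bases. The narrower peaks covered 4.55 Mb with a median width of 1005 bp.

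Widths ran on across the threshold without a break. The domains just inside it were chr16:4588382-4590382 (2000 bp), chr17:74350533-74352535 (2002 bp) and chr16:87995855-87997858 (2003 bp). The peaks just outside it were chr2:233165868-233167867 and chr11:74764692-74766691, both 1999 bp, and chr12:131692349-131694345, 1996 bp. Peaks of this width were rare in the other libraries. The KO cisplatin list had 40 of 4532 on chromosomes 1 to 22 (0.883%, exact binomial interval 0.631 to 1.20%), the WT cisplatin list had 1 of 1803, and the WT pemetrexed list had 0 of 911, with an exact upper bound of 0.404%.

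**Figure D1:**
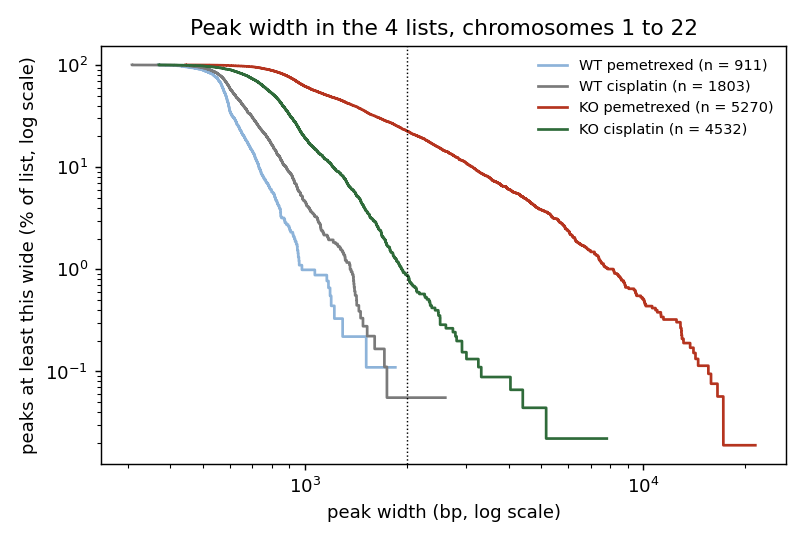
Share of each list's peaks (vertical axis, percent, log scale) that are at least as wide as the value on the horizontal axis (bp, log scale), for the 4 lists on chromosomes 1 to 22, 1 library each; the dotted line marks 2000 bp. At that width the KO pemetrexed curve stands at 22.7% and the KO cisplatin curve at 0.883%, and the WT pemetrexed curve ends at 1851 bp.

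The 10 widest domains lay on 9 chromosomes, and all of them spanned 13769 bp or more. Of the 5 widest, of 15871 to 21459 bp, the widest (chr10:134114109-134135568) met a WT cisplatin peak, and chr17:76714584-76730455 met a KO cisplatin peak. Behind them came chr10:75275698-75291285 with 15587 bp and chr4:1720619-1735160 with 14541 bp. Also among the 10 were chr1:2092797-2106882 with 14085 bp and chr14:104730075-104743844 with 13769 bp. A domain of 14280 bp on chromosome 8 was the other one. None of these last 5 held a peak of another list, which was also the case for 86.9% of all domains and 92.4% of all peaks. The nearest KO pemetrexed peak lay 17592 bp from the domain on chromosome 10 but 33 bp from that on chromosome 4 and 383 bp from that on chromosome 1. The widest domains thus differed in whether they continued into another peak or ended in a longer gap.

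Many domains were parts of longer runs. Where consecutive domains within 10 kb of each other were joined, 603 of the 1194 domains (50.5%, exact binomial interval 47.6 to 53.4%) had another domain that close, and 591 stood as single domains. There were 121 runs of 2 domains, 49 of 3 and 20 of 4, and 16 runs held 5 or more. The longest run, by number of domains, was near the end of the long arm of chromosome 16 (88106018 to 88241472). It held 19 domains of 2110 to 13162 bp (median 3120 bp) in 135454 bp, with 26 to 9731 bp between neighbouring domains (median 1124 bp), and domains covered 66.2% of it. Among them were domains of 13162 bp (88110736 to 88123898) and 13022 bp (88140028 to 88153050), with 4 domains of 2110 to 7729 bp between them and 61 to 349 bp from each domain to the next. In this run the other libraries had 2 KO cisplatin peaks, 1 WT cisplatin peak and 0 WT pemetrexed peaks by midpoint.

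The second run, on chromosome 4 (1720619 to 1825570), was the longest one away from chromosomes 16, 17, 19 and 22. It held 13 domains of 2617 to 14541 bp (median 5415 bp) in 104951 bp, and domains covered 69.5% of it. Its domains lay 8 to 9381 bp apart. No peak of the WT pemetrexed, WT cisplatin or KO cisplatin list had its midpoint in this run (0 in each). It held 13 of the 26 domains on chromosome 4, and 25 of these 26 were within 5 Mb of an end of the chromosome.

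The third run, on chromosome 22 (35148225 to 35232848), was placed inside its chromosome. It held 11 domains of 2111 to 6519 bp with 103 to 9263 bp between them, and domains covered 51.4% of its 84623 bp. By midpoint it held 5 KO cisplatin peaks, 1 WT pemetrexed peak and 0 WT cisplatin peaks, where the run on chromosome 4 held none. Holding none was not particular to that run, as run 5 below held none too. Over all domains, 86.9% met no peak of another list, with 92.4% over all peaks. Chromosome 22 also had a run of 8 domains at 44728276 to 44801624, with 0 midpoints of each other list. A run of 7 domains lay on the same chromosome at 35006785 to 35055538, with 1 KO cisplatin peak.

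Runs 4 and 5 were on chromosome 16, before the longest one. Run 4 (87927384 to 87997858) held 10 domains of 2003 to 6072 bp, with 2 KO cisplatin and 2 WT cisplatin peaks. Run 5 (87857828 to 87905262) held 9 domains of 2060 to 7181 bp, never more than 2193 bp apart, and domains covered 84.1% of it. No other list had a peak midpoint in run 5. The 3 of these 5 runs that lay on chromosome 16 therefore ranged from none to 4 peaks of the cisplatin lists. Chromosome 16 had further runs of fewer domains, such as 1 of 7 domains at 248909 to 298928.

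Joined with the narrower peaks at the same distance of 10 kb, the 5270 peaks formed 3386 stretches, of which 738 held a domain. The median width was 7138 bp for a stretch with a domain and 1043.5 bp for a stretch without. All 25 stretches of 50 kb or more held a domain. These values describe the rule, because a stretch with a domain spans 2000 bp or more by construction. A stretch of many peaks also holds a domain more easily by number alone. The widest spanned 224933 bp on chromosome 16 (88043521 to 88268454), with 39 peaks, 24 of them broad. At the other extreme, 314 domains (26.3%) were alone in their stretch. Within the 261 stretches of 3 or more peaks that held a domain, the widest peak was the first or last one in 118 (45.2%), beside a mean of 47.7% of places being first or last, so the widest peak was placed at the edges about as often as the number of places gives.

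The domains lay closer to other peaks of the list than the narrower peaks did. The median distance from a domain to the nearest KO pemetrexed peak was 3.08 kb from edge to edge (interquartile range 0.637 to 10.3 kb), against 12.1 kb for a narrower peak (2.90 to 45.5 kb). Between midpoints, which wide peaks cannot bring closer, the medians were 6.56 and 13.5 kb. On each of the 21 chromosomes with 5 or more domains the median edge-to-edge distance was smaller for the domains. Another peak lay within 10 kb of 73.7% of the domains (71.1 to 76.2%) and of 46.1% of the narrower peaks (44.5 to 47.6%), where the figure for all peaks of the list was 52.3%. The odds ratio was 3.28 (exact interval 2.84 to 3.80). It was 2.34 (1.89 to 2.92) on chromosomes 16, 17, 19 and 22 and 4.04 (3.31 to 4.94) on the other chromosomes, so the closer spacing was found both on and off the chromosomes with most domains.

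At 100 kb the shares were 98.0% of the domains (97.0 to 98.7%) and 85.6% of the narrower peaks, with 88.4% over all peaks. At the smallest distances, 115 domains (9.63%) had another peak within 100 bp, against 115 narrower peaks (2.82%), and the smallest gap was 2 bp. Only 1 domain had no other peak within 1 Mb. It spanned 3184 bp on chromosome 3 (121380960 to 121384144), 5169 kb from the nearest peak, and no other list had a peak there. The next most isolated were 2071 bp (53036772 to 53038843) and 3546 bp (55872757 to 55876303), both on chromosome 12, at 632 and 516 kb. The last met a KO cisplatin peak.

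Broad lay beside broad. The nearest peak was itself a domain for 528 domains (44.2%, 41.4 to 47.1%) and for 737 narrower peaks (18.1%, 16.9 to 19.3%), with 24.0% over all peaks. The odds ratio was 3.59 (3.12 to 4.14), with 2.92 (2.38 to 3.59) on chromosomes 16, 17, 19 and 22 and 4.24 (3.48 to 5.18) elsewhere. Within 100 kb of its edges a domain had a median of 10 other peaks of the list (interquartile range 6 to 15), of which a median of 4 were broad. A narrower peak had a median of 4 (1 to 9), and its median number of broad ones was 0. Broad peaks were more frequent among the peaks of dense windows and near chromosome ends, as described below. The part of density and of chromosome ends in these values was not tested.

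**Figure D2:**
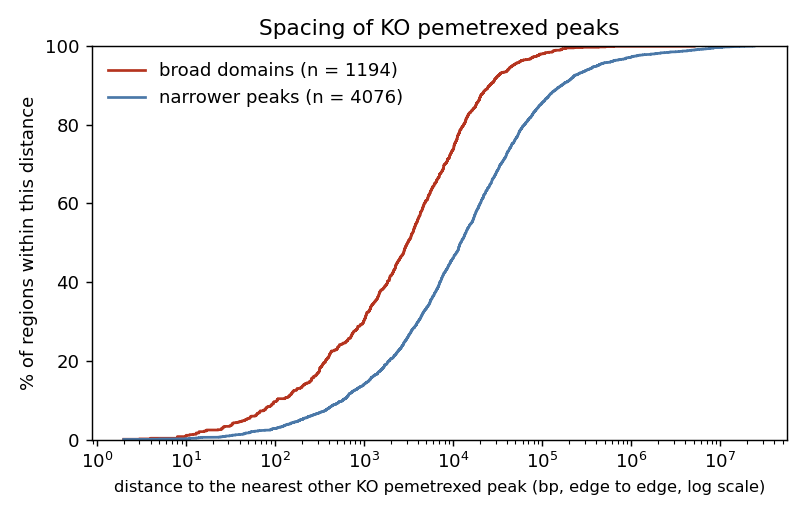
Cumulative share of regions (vertical axis, percent) whose nearest other KO pemetrexed peak lies within the distance on the horizontal axis (bp, edge to edge, log scale), for the 1194 broad domains and the 4076 narrower peaks. The curve of the domains stands to the left throughout the middle of the range, with medians of 3.08 and 12.1 kb.

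Chromosomes 17, 19, 16 and 22 held most domains for their length. Chromosome 19 had 169 domains, or 2.66 per Mb of the span covered by any list, chromosome 22 had 89 (2.60 per Mb), chromosome 17 had 180 (2.29 per Mb) and chromosome 16 had 161 (1.82 per Mb). The next was chromosome 20 with 0.660 per Mb. Chromosome 18 had 1 domain, of 8871 bp, and chromosome 6 had 5. The 4 leading chromosomes are gene-dense and were known from all peaks of this list to be rich in peaks, so the comparison that bears on the domains is with the narrower peaks. They held 50.2% of the domains (47.3 to 53.0%) and 41.3% of the narrower peaks (39.8 to 42.8%), with 43.3% over all peaks, giving an odds ratio of 1.43 (1.25 to 1.63). With regions within 100 kb of others of their class counted once, the shares were 40.1% of 354 groups of domains (35.0 to 45.4%) and 24.9% of 1239 groups of narrower peaks (22.6 to 27.4%).

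The 4 chromosomes did not behave alike in this comparison. Chromosome 16 held 13.5% of the domains and 9.32% of the narrower peaks, with an odds ratio of 1.52 (1.24 to 1.85). On chromosome 17 lay 15.1% and 11.3%, with an odds ratio of 1.40 (1.15 to 1.69). Chromosome 19 held 14.2% of the domains and 14.3% of the narrower peaks (0.990, 0.818 to 1.19), so that its many domains went with equally many narrower peaks. For chromosome 22 the odds ratio was 1.17 (0.899 to 1.51).

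The share of a chromosome's peaks that were broad was 29.8% on chromosome 16 (25.9 to 33.8%), 29.5% on chromosome 8 (21.2 to 38.8%), 28.8% on chromosome 9 (23.0 to 35.0%), 28.2% on chromosome 17 and 22.5% on chromosome 19. It was 12.8% on chromosome 7 (8.92 to 17.6%), 12.2% on chromosome 2 (7.92 to 17.8%), 14.6% on chromosome 3, 6.41% on chromosome 6 (2.11 to 14.3%) and 4.35% on chromosome 18 (1 of 23 peaks, 0.110 to 21.9%). Chromosomes 2, 3, 6 and 7, grouped after their values were seen, together held 7.62% of the domains and 15.6% of the narrower peaks. The gene-poor chromosomes 4, 13 and 18 held 2.76% and 3.75% (odds ratio 0.729, 0.482 to 1.07), with an interval that included 1. Over the 21 chromosomes with 5 or more domains, the median width of a domain ranged from 2262 to 3633 bp, with chromosome 4 highest.

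**Figure D3:**
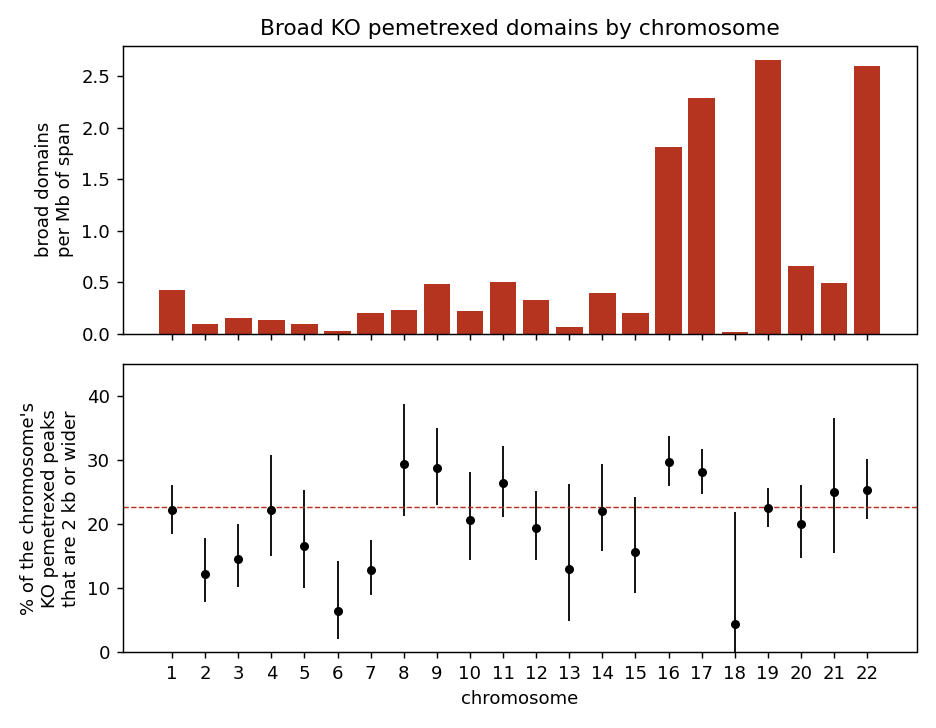
Upper panel, broad domains per Mb of the span covered by any list on each chromosome (bars). Lower panel, share of each chromosome's KO pemetrexed peaks that are 2 kb or wider (points, percent) with exact 95% binomial intervals and the share over all chromosomes, 22.7%, as a dashed line. Chromosomes 16, 17, 19 and 22 stand above 1.8 domains per Mb, but chromosome 19 lies on the dashed line in the lower panel.

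Domains were more frequent toward the ends of chromosomes than the narrower peaks were. The end was taken as the first or last position covered by any list, the last alone on chromosomes 13, 14, 15, 21 and 22. Within 5 Mb of an end lay 685 domains (57.4%, 54.5 to 60.2%) and 1261 narrower peaks (30.9%, 29.5 to 32.4%), with 36.9% over all peaks. The odds ratio was 3.004 (2.63 to 3.44). It was 2.28 (1.88 to 2.77) on chromosomes 16, 17, 19 and 22 and 3.69 (3.05 to 4.46) on the others.

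The share of peaks that were broad was 42.7% in the outermost 1 Mb (342 of 801), 38.7% from 1 to 2 Mb, 23.0% from 2 to 5 Mb, 16.2% from 5 to 10 Mb, 19.7% from 10 to 20 Mb, 13.8% from 20 to 40 Mb and 12.1% beyond 40 Mb. It was alike at the 2 kinds of end, 33.9% in the first 5 Mb and 36.4% in the last 5 Mb (intervals 30.9 to 37.0% and 33.4 to 39.5%). Of the 22 chromosomes, 17 had a higher share near an end than inside. On chromosome 11 it was 74.5% of 47 peaks near an end and 15.7% inside, and on chromosome 16 it was 41.9% and 9.41%. Chromosome 17 showed a smaller gap, 32.1% and 25.4%. Chromosome 3 went the other way with 6.67% of 30 peaks near an end and 15.9% inside. So did chromosomes 6, 13, 15 and 18, with 0 of 1, 2 of 22, 0 of 3 and 0 of 3 peaks near an end broad. With so few peaks near an end, chromosomes 6, 15 and 18 say little in either direction.

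The share of broad peaks was also higher where peaks were dense. Of the 213 windows of 1 Mb that held a single KO pemetrexed peak, 4 held a broad one (1.88%). The share was 9.18% in windows of 3 to 5 peaks, 17.7% in windows of 11 to 20, 31.1% in windows of 21 to 40 and 40.6% in the 16 windows of 41 or more (360 of 887). The narrower peaks were also somewhat wider there, with a median of 1124 bp against 912 bp in windows of 1 peak. Dense windows and chromosome ends overlapped. Among peaks in windows of like density, the odds ratio of a broad peak near an end was 3.13 (2.10 to 4.60) at 1 to 10 peaks per window, 1.42 (0.998 to 2.01) at 11 to 20, 2.01 (1.61 to 2.51) at 21 to 40 and 1.32 (0.901 to 1.95) at 41 or more. All 4 were above 1, and the intervals at 11 to 20 and at 41 or more included 1. The class of 1 to 10 peaks was matched only loosely. Within it the share of broad peaks went from 1.88% in windows of 1 peak to 11.8% in windows of 6 to 10.

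**Figure D4:**
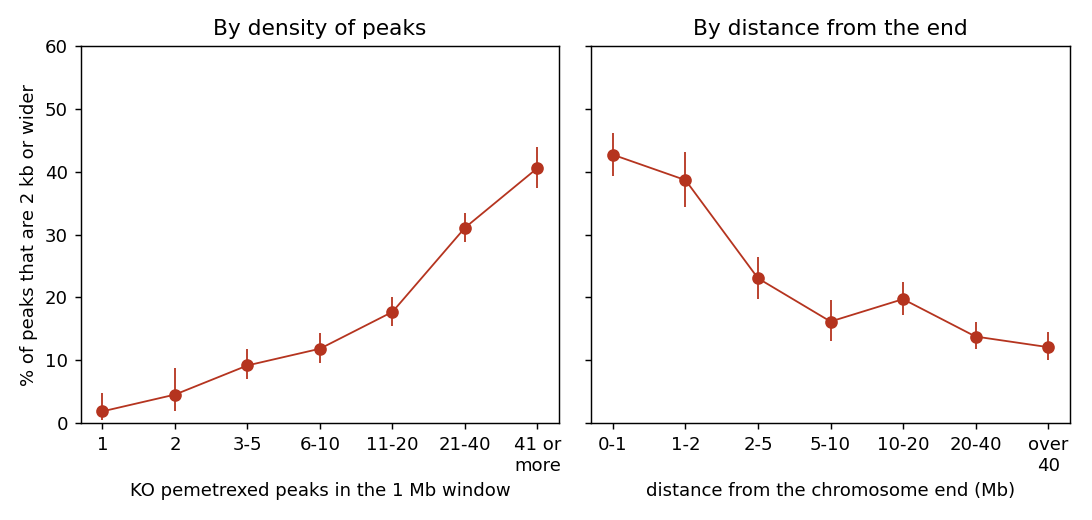
Share of KO pemetrexed peaks that are 2 kb or wider (vertical axis, percent, with exact 95% binomial intervals), by the number of KO pemetrexed peaks in the 1 Mb window (left) and by distance from the nearest chromosome end in Mb (right). The share goes from 1.88 to 40.6% with density and from 42.7% in the outermost 1 Mb to 12.1% beyond 40 Mb.

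Of the 707 windows with a KO pemetrexed peak, 237 held a domain. In all, 32 windows held 50% of the 1194 domains and 102 windows held 50% of the 4076 narrower peaks. The window with most domains was on chromosome 19 (1000001 to 2000000), with 38 domains among 97 peaks of the list. Of the other lists it held 20 peaks of KO cisplatin, 9 of WT cisplatin and 0 of WT pemetrexed. The next were the last window of chromosome 16 (88000001 to 89000000) with 35 of 65 peaks broad, the window before it (87000001 to 88000000) with 33 of 54, and the first window of that chromosome (1 to 1000000) with 33 of 71. After them came a window on chromosome 17 (77000001 to 78000000), with 30 of 54. The first window of chromosome 11, named after its values were seen, had a higher share, with 27 of 35 peaks broad (77.1%), covering 130 kb. There the KO cisplatin list had 4 peaks, the WT cisplatin list 7 and the WT pemetrexed list 0.

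Most domains met no peak of another library. Of the 1194 domains, 1038 (86.9%) met none of the 3 other lists by 1 bp or more, 152 met 1 list, 4 met 2 and 0 met all 3. Meeting none was the usual state of the list: 3829 narrower peaks (93.9%) met none, with 92.4% over all peaks, so the share of domains that met none was below both. KO cisplatin peaks met 124 domains (10.4%, 8.71 to 12.3%) and 205 narrower peaks (5.03%, 4.38 to 5.75%), with 6.24% over all KO pemetrexed peaks. The odds ratio was 2.19 (1.72 to 2.78). A wide region meets more peaks by its width alone, and in a window of 500 bp at the midpoint of each region the shares were 5.95% and 4.39%, with 4.74% over all peaks and an odds ratio of 1.38 (1.02 to 1.84).

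Per base covered the order was the opposite. Domains held 115 KO cisplatin midpoints, or 26.1 per Mb (exact Poisson interval 21.6 to 31.4), and narrower peaks held 166, or 36.5 per Mb (31.1 to 42.5), a ratio of 0.716 (0.560 to 0.914). With the threshold of width at 1500 bp the ratio was 0.813 (0.638 to 1.04), and its interval included 1. Outside the list's peaks the value was 1.54 per Mb. Of the domains met, 119 met 1 KO cisplatin peak and 5 met 2. A region with 1 peak has fewer midpoints per Mb the wider it is, so this measure can favour narrower regions. Neither overlap nor midpoints per Mb is thus free of width. In the equal windows of 500 bp the odds ratio of 1.38 (1.02 to 1.84) was toward the domains. Such a window covers a smaller part of a domain than of a narrower peak, and it was not matched for density. The share of domains met did not climb with their width. It was 8.16% for domains of 2 to 2.5 kb, 12.7% for 2.5 to 3 kb, 11.3% for 3 to 4 kb, 11.7% for 4 to 5 kb and 11.6% for 5 to 7.5 kb, and the intervals of these classes overlapped. Of the 27 domains of 10 kb or more, 1 met a KO cisplatin peak (3.70%, 0.0937 to 18.97%), beside 123 of the 1167 domains under 10 kb (10.5%). Midpoints per Mb went from 33.0 and 41.7 in the narrowest 2 of these classes to 20.5 in domains of 5 to 7.5 kb. In the 4 classes of windows by number of KO pemetrexed peaks, the ratio of broad over narrower was 0.590 to 0.796, each with an interval that included 1.

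WT cisplatin peaks met 33 domains (2.76%, 1.91 to 3.86%) and 39 narrower peaks (0.957%, 0.681 to 1.31%), with 1.37% over all peaks. The odds ratio of 2.94 (1.78 to 4.82) became 1.47 (0.743 to 2.77) in the window of 500 bp, where 1.26% of the domains and 0.859% of the narrower peaks were met, with 0.949% over all peaks. Per Mb covered the values were 7.04 and 7.69, a ratio of 0.916 (0.546 to 1.53). Of the 27 domains of 10 kb or more, 3 met a WT cisplatin peak (11.1%, 2.35 to 29.2%), beside 30 of the 1167 domains under 10 kb (2.57%, 1.74 to 3.65%). In the window of 500 bp and per Mb covered, no excess of domains over narrower peaks was detectable for WT cisplatin. WT pemetrexed peaks met 3 domains (0.251%) and 10 narrower peaks (0.245%), with 0.247% over all peaks, and the odds ratio was 1.02 (0.181 to 3.99). In the window of 500 bp WT pemetrexed peaks met 0 domains and 10 narrower peaks, with 0.190% over all peaks.

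From 5 to 50 kb outside the regions, peaks of the 2 cisplatin lists were denser around domains than around narrower peaks. Each position was assigned to its nearest KO pemetrexed peak. At 5 to 10 kb from the edge, the KO cisplatin list had 10.2 midpoints per Mb beside domains and 6.31 beside narrower peaks (ratio 1.61, 1.13 to 2.26), and the WT cisplatin list had 6.94 and 2.43 (2.86, 1.78 to 4.48). At 10 to 50 kb the ratios were 1.43 (1.14 to 1.77) and 1.45 (1.01 to 2.05). For the WT cisplatin list, the density at 5 to 10 kb from a domain had an interval of 4.68 to 9.90 per Mb, which holds the 7.04 per Mb inside domains. Its ratio at 100 kb to 1 Mb was 1.54 (1.06 to 2.18). Within the first 1 kb the ratios were 1.05 (0.637 to 1.66) for KO cisplatin and 1.11 (0.403 to 2.65) for WT cisplatin. For WT pemetrexed every interval included 1. Of the 24 ratios over 8 distances and 3 lists, 5 had an interval above 1 and 1, that inside the regions for KO cisplatin, below 1. They were not adjusted for their number. Domains lay in denser parts of the genome than narrower peaks, and the part of density in these ratios was not tested.

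**Figure D5:**
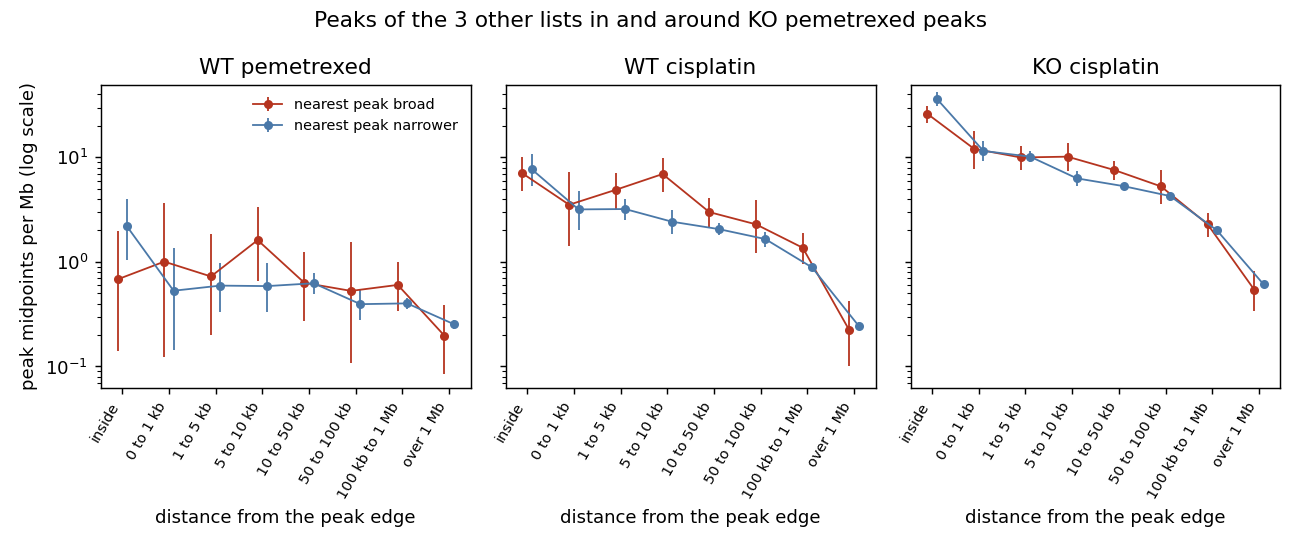
Midpoints of WT pemetrexed, WT cisplatin and KO cisplatin peaks per Mb (vertical axis, log scale, with exact 95% Poisson intervals) inside KO pemetrexed peaks and by distance from the edge of the nearest one (horizontal axis), where that peak is broad or narrower. Inside the regions the KO cisplatin list stands at 26.1 per Mb in domains and 36.5 in narrower peaks, and at 5 to 10 kb both cisplatin lists stand higher beside domains.

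The 4 domains that met peaks of 2 other lists met the WT cisplatin and KO cisplatin lists each time. They were chr19:18472272-18480903 (8631 bp), chr19:11466773-11470158 (3385 bp), chr19:54115800-54118598 (2798 bp) and chr9:129672196-129679592 (7396 bp). These 4 were 12.1% of the 33 domains met by WT cisplatin and 3.23% of the 124 met by KO cisplatin. The 3 domains with a WT pemetrexed peak were chr1:1104246-1110031 (5785 bp), chr1:1791966-1794537 (2571 bp) and chr22:35168186-35170297 (2111 bp), the last in the run of 11 domains described above. None of the 3 met a cisplatin peak.

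No domain met 3 KO cisplatin peaks, and 5 met 2. They were chr9:129530575-129536861 (6286 bp), chr19:1870944-1874644 (3700 bp), chr3:52500147-52503805 (3658 bp), chr17:17046610-17049459 (2849 bp) and chr3:49133798-49136269 (2471 bp). The one on chromosome 19 belonged to a stretch of 14 KO pemetrexed peaks, 5 of them broad, from 1857919 to 1910677. That stretch, named after its values were seen, held 8 KO cisplatin midpoints and 0 of either WT list.

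Seen from the other lists, domains took up few of the peaks. They were met by 128 of 4532 KO cisplatin peaks (2.82%, 2.36 to 3.35%), by 33 of 1803 WT cisplatin peaks (1.83%, 1.26 to 2.56%) and by 3 of 911 WT pemetrexed peaks (0.329%, 0.0680 to 0.959%). The KO cisplatin peaks on domains were wider at the median, with 975 bp (interquartile range 837.75 to 1278.25 bp). The median was 844.5 bp on narrower KO pemetrexed peaks and 808 bp on neither. They were not the widest of their list, with a maximum of 2347 bp on domains and 7807 bp on neither. The WT cisplatin peaks on domains had a median of 699 bp, against 622 bp on neither. A wider peak also meets a region more easily. Of the 40 KO cisplatin peaks of 2 kb or more, 3 lay on a KO pemetrexed domain (7.50%, 1.57 to 20.4%), 0 on a narrower KO pemetrexed peak and 37 on neither (92.5%), beside 92.6% on neither for the whole KO cisplatin list. Of these 40, 7 lay within 100 kb of a domain, a share that was not computed for the whole KO cisplatin list.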

How the data were processed

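Per the submitters' processing notes, the tools were Bowtie (no version) and MACS 1.4, with build hg18. Neither the control nor the threshold of the peak calls is stated in these notes, and a deeper library or another control changes the number and width of called peaks. The deposited lists hold chromosome, start and end only, other values such as p-values or counts being absent per the file headers. Positions are printed as listed, and their first base may be numbered 0 or 1. No gene or sequence is given for a region, because the tables at hand were in another build.

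Width was end minus start. Domains and narrower peaks were compared by shares with exact (Clopper-Pearson) intervals, conditional odds ratios with exact intervals (22 for placement, 6 for overlap, none adjusted) and midpoints per Mb with exact Poisson or conditional intervals, in Python 3.11.15 with SciPy 1.17.1. The interval functions were tested on simulated data. Regions named were, by rule, the 10 widest, those at the threshold, those meeting several peaks of other lists, the longest runs, the fullest windows and the most isolated. The rule asked for domains meeting 3 or more KO cisplatin peaks. None did, so those meeting 2 are named, chosen after their values were seen. Members and lists were chosen with earlier results of these data known.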

Additional observations from a re-analysis of the deposited data

How the results depend on the processing

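Of 43 alternative values for 11 results, 30 stayed within the interval of the reported value (or within 1.5 times for numbers and covered bases), 13 moved and 0 reversed. The distance between midpoints and the joining of narrower peaks were chosen after the data were seen. The number of domains, 1194, was 1877 at a threshold of 1500 bp, 577 at 3000 bp and 1216 with peaks within 1 kb joined first. Their share of covered bases was 32.4% at 3000 bp. The share on chromosomes 16, 17, 19 and 22 was 46.9% at 1500 bp and 40.1% with domains within 100 kb counted once. The share with another peak nearby was 73.7% at 10 kb and 99.9% at 1 Mb. The share met within 10 kb was 29.1% for KO cisplatin, 12.5% for WT cisplatin and 2.35% for WT pemetrexed. In the window of 500 bp it was 5.95%, 1.26% and 0%. Wider distances and wider windows meet more peaks, and lower thresholds admit more domains, by construction. For the share on chromosomes 16, 17, 19 and 22 the cause was not tested. The ratio of KO cisplatin midpoints per Mb was 0.813 (0.638 to 1.04) at 1500 bp, where its interval included 1, and 0.565 (0.418 to 0.755) at 3000 bp. No paired analysis was possible because there was 1 library in each group.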

Other observations

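Where a KO cisplatin peak fell inside a domain, it lay toward the middle somewhat more often than at the margins. Of 115 KO cisplatin midpoints inside domains, 71 (61.7%, 52.2 to 70.6%) were in the central 50% of the domain's length. For WT cisplatin it was 20 of 31 midpoints (64.5%, 45.4 to 80.8%), with an interval that included 50%. A peak whose midpoint lies near an edge also overlaps the domain in part only.

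Few regions of either class bordered the longest stretch of their chromosome without a peak of any list. Within 1 Mb of that stretch lay 4 domains (0.335%, 0.0914 to 0.856%) and 31 narrower peaks (0.761%, 0.517 to 1.08%). The odds ratio was 0.439 (0.112 to 1.24), with an interval that included 1. Outside chromosomes 1 to 22 the KO pemetrexed list held 8 peaks, 1 of them 2 kb or wider.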
